A study of Homo sapiens with 17 samples.

Results

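The heterogeneous nuclear ribonucleoproteins (hnRNPs) were examined here through the mRNAs of 10 family genes, HNRNPA1, HNRNPA2B1, HNRNPC, HNRNPD, HNRNPF, HNRNPH1, HNRNPK, HNRNPL, HNRNPM and HNRNPU. They were listed by gene symbol as major members of the family, by no rule on a measured value. Earlier results of these data were known when the list was made. The 10 make up a small part of the 23368 genes in the count table. All 10 passed the filter on low counts in every fit. The study asked which mRNAs carry N4-acetylcytidine (ac4C), the cytidine mark that the acetyltransferase NAT10 places on RNA, and how this depends on the RNA-binding protein TDP43, encoded by TARDBP. HEK293T, a cell line derived from human embryonic kidney, gave poly(A) RNA that was sequenced before pull-down (input), after pull-down with an antibody to ac4C (IP, the acRIP fraction) and after pull-down with an isotype control antibody (IgG). The WT cells were labelled with no other treatment, and no control siRNA was named for them. The siTDP43 cells had received siRNA against TDP43. WT IgG held 2 libraries and the other 5 groups 3 each, 17 in all. The labels name no batch, so the genotypes and any difference in their handling cannot be told apart.

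hnRNPs coat nascent transcripts in the nucleus and act in packaging, splicing, export, stability and translation of mRNA. Most bind RNA through RNA recognition motifs (RRMs), while HNRNPK uses KH domains and HNRNPU an arginine- and glycine-rich region. TDP43 is itself an RRM protein of the hnRNP type that binds UG-rich RNA, and HNRNPM was among the proteins that the study detected together with NAT10. Levels are given as CPM, the count scaled to the library, on the effective library size, which lets 1 gene be compared between libraries. Levels of different genes were compared only as CPM per kb of exon. Differences are log2 fold changes with their standard error (SE) from edgeR, with p-values adjusted over all genes of the table that were tested. A difference between inputs or between genotypes was called at an adjusted p under 0.05, and one between pull-down and control within a genotype also had to exceed 2-fold.

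Total counts ran from 3013989 to 36583436 per library, lowest in the siTDP43 IgG group (3013989 to 3436811), so values there rest on the fewest reads. TARDBP in input stood at 150, 157 and 151 CPM in WT and at 98.6, 102 and 106 in siTDP43, a log2 change of -0.57 (SE 0.045, edgeR adjusted p = 6.55e-13), so the mRNA remained at 67.2% of the WT level. All 6 HEK293T marker genes examined were detected in both inputs, by more than 3 counts in some library of each. Their summed level was 1217 to 1250 CPM in WT input and 593 to 637 in siTDP43 input. INA stood near the floor in WT input, at 0.11 to 0.33 CPM. The fibroblast marker COL1A1 stood at 6.50 to 7.74 CPM there. KRT8 (log2 -2.30), VIM (-1.58), NEFM (-0.66) and KRT18 (-0.54) were lower in siTDP43 input and NEFL (1.52) and INA (3.39) higher, all called by edgeR, and their part in the results on hnRNP genes was not tested. For 9 markers of blood, erythroid, fibroblast, endothelial and liver cells the summed level was 1.56 to 15.3 CPM in all 17 libraries, 7.29 to 8.67 in WT input and 1.56 to 2.49 in siTDP43 input, with PTPRC and COL1A2 at or under 3 counts in every group. Nothing in the labels names separate cultures, so p-values measure the spread between these libraries, which may be technical. Counting intervals cover counting error only, since no molecular identifiers were used.

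The 10 hnRNP mRNAs did not move as 1 group. HNRNPD, HNRNPL and HNRNPU were each at their lowest in input and far higher in both pull-downs, IP and IgG alike. HNRNPC, HNRNPF and HNRNPK were each at their highest in input and lower in both pull-downs. Only HNRNPK was lower past 2-fold in both pull-downs of both genotypes. In siTDP43 input, 7 of the mRNAs were higher than in WT input and 3 were lower, from 2.66-fold higher for HNRNPM to 0.584 of the WT level for HNRNPU. Against IgG most of the values were small, and HNRNPD in WT was the 1 gene of the 10 above both input and IgG by more than 2-fold. Relative to the median of all genes tested, HNRNPD in WT was under 2-fold above IgG, at log2 0.88. HNRNPM showed the largest genotype difference of the 10 when IP was set against input, and next to none when IP was set against IgG. The levels of all 10 in every library are plotted by group.

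**Figure D1:**
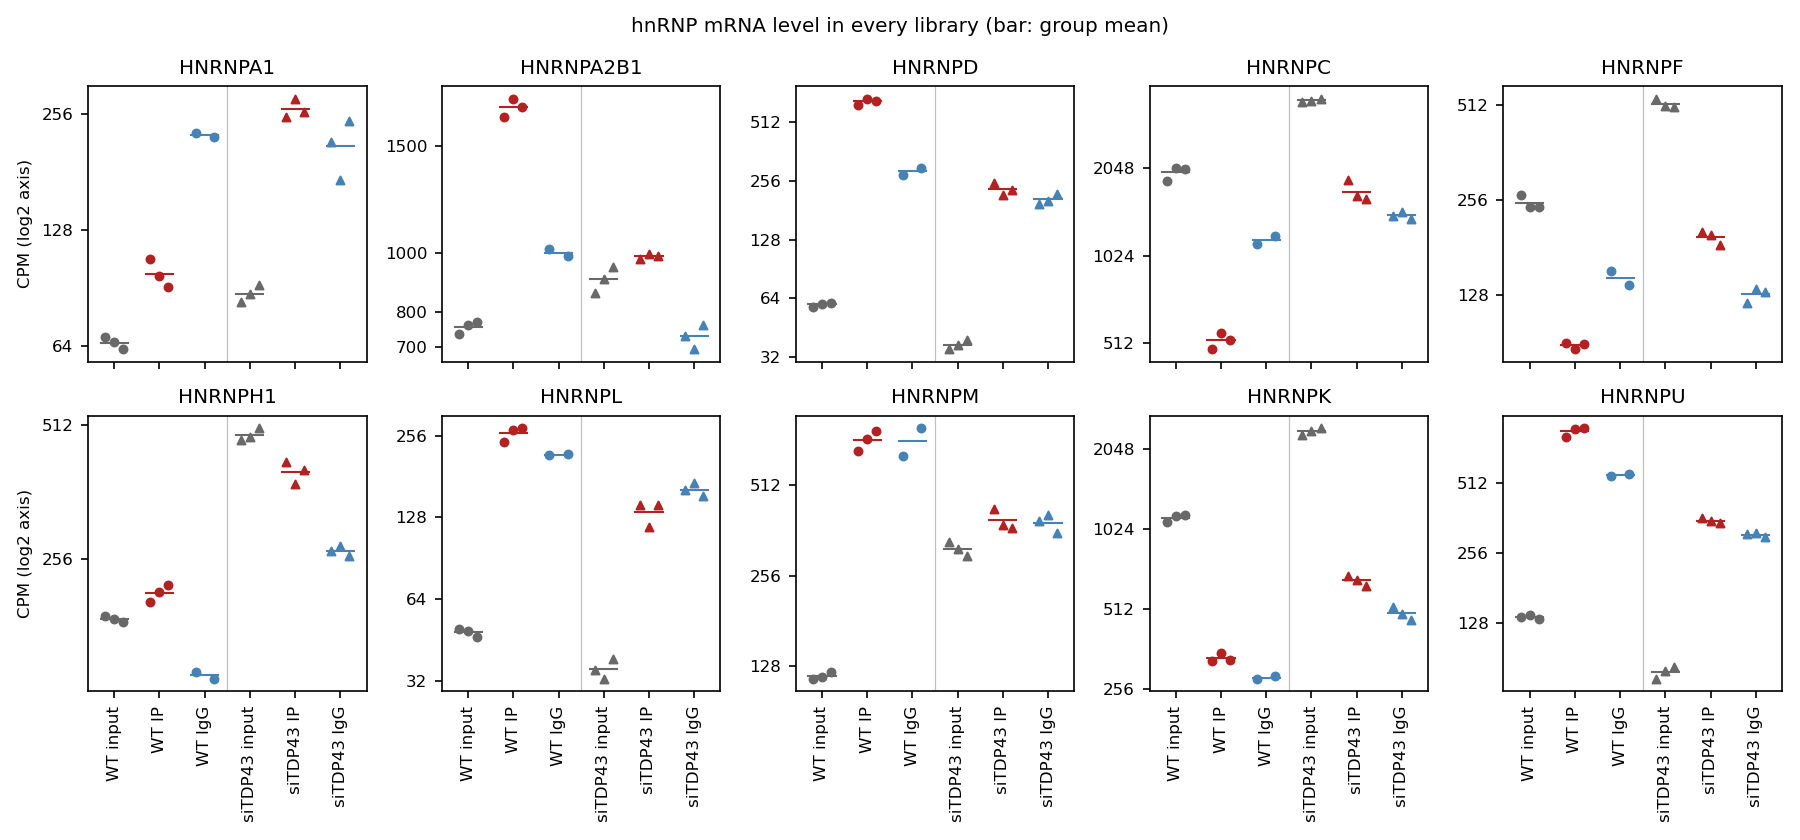
Level of each hnRNP mRNA in CPM (log2 axis) in the 17 libraries, by group. Circles are WT and triangles siTDP43 libraries, coloured grey for input, red for IP and blue for IgG, and bars are group means. HNRNPD, HNRNPL and HNRNPU lie lowest in the 2 input groups, and HNRNPC, HNRNPF and HNRNPK lie highest there within each genotype.

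Per kb of exon, HNRNPC was the most abundant mRNA of 9 in WT input, at 610 ± 33.7 CPM per kb (SD, n = 3), followed by HNRNPK at 365 ± 11.0 and HNRNPA2B1 at 204 ± 4.80. HNRNPH1 (83.2 ± 1.36), HNRNPF (74.7 ± 3.71), HNRNPM (46.8 ± 1.23), HNRNPD (26.4 ± 0.687), HNRNPL (22.4 ± 0.787) and HNRNPU (19.9 ± 0.417) followed on the same scale. No neighbours in that order overlapped between libraries. HNRNPA1 was left out of the order because most of its exon bases could not be counted, as described with that gene. In siTDP43 input the order was the same except for HNRNPL (16.5 ± 1.42) and HNRNPD (16.4 ± 0.906), which overlapped, with HNRNPC at 1080 ± 15.5 and HNRNPU at 11.6 ± 0.705 CPM per kb. In WT IP the order was another one. HNRNPA2B1 led at 470 ± 16.7 CPM per kb, HNRNPD (290 ± 10.9) and HNRNPM (285 ± 21.3) came next and overlapped, and HNRNPF was last at 26.3 ± 0.615. In siTDP43 IP, HNRNPC again led at 524 ± 44.6 CPM per kb and HNRNPU was last at 51.6 ± 1.45. Together the 10 genes took 0.498 to 0.520% of all counts in WT input and 0.840 to 0.860% in siTDP43 input. Their share was 0.625 to 0.657% in WT IP, 0.504 to 0.521% in WT IgG, 0.475 to 0.480% in siTDP43 IP and 0.349 to 0.353% in siTDP43 IgG, so the input share was the higher one in siTDP43 and both pull-down shares were the lower ones.

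The exon sequence of the genes was read for the ac4C motif of the study, for UGUGCG, which it names for TDP43, and for a run of UG. These are written here in DNA letters and were searched on the strand of the gene and within exon blocks only. A further motif that the study reports for TDP43-bound transcripts, UCYYRSCU, was not searched with its variable letters. The ac4C motif, searched as TCCCAGCT, was in 0 of the 10 genes, against 19.6% of the 15165 genes tested in the fit of all libraries. TGTGCG was in 2 of the 10, HNRNPD and HNRNPM, against 30.7% of those genes, and among genes of similar exon length (0.8 to 1.2 times) the share was 26.0% for HNRNPD and 27.7% for HNRNPM. TGTGTG, which differs from it by 1 letter, was in 6 of the 10, against 65.7%. The windows around the TGTGCG matches are shown because these are the only members that hold TGTGCG. The motif is in capitals with 10 bases on each side, read 5′ to 3′ on the gene strand from hg19.
HNRNPD, UTR, chr4:83295022-83295047, minus strand: agagcgggagTGTGCGccgcgcgaga
HNRNPM, UTR, chr19:8553910-8553935, plus strand: gagattgcaaTGTGCGcaattttttt
In the paralogues HNRNPA1 and HNRNPA2B1 a TGTGTG match ended exactly at the end of an exon, so that these windows run 10 bases into the intron. The pair is shown because the match lies at the same kind of place in both, and the windows were identical at 18 of 26 positions. That count holds the 6 motif bases, which are shared by the choice of the windows, and the gt at the start of each intron. In GENCODE the exonic part is coding in some transcripts and UTR in others.
HNRNPA1, chr12:54675271-54675296, plus strand: gctcacggacTGTGTGgtaagatttg
HNRNPA2B1, chr7:26237232-26237257, minus strand: gcttacagacTGTGTGgtatgtaaat
A match to these letters describes the sequence and does not show that the RNA is bound or acetylated there. The GC content of the exons ran from 38.7% in HNRNPA2B1 to 54.5% in HNRNPL, against a median of 49.6% over the genes tested.

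HNRNPA1 (chr12:54674488-54679030, plus strand, hg19), a splicing repressor that binds exonic and intronic silencers, could be counted over part of its length only. The table also lists HNRNPA1P10 on the same strand at the same place, and the 2 share 1356 of the 1925 exon bases of HNRNPA1 (70.4%). HNRNPA1P10 had 0 counts in all 17 libraries. The counting tool leaves reads that overlap more than 1 gene unassigned unless told otherwise, so the HNRNPA1 counts were taken to come from the other 569 bases. GENCODE also names 74 HNRNPA1 pseudogenes to which reads can map. Of the 569 bases, 367 are the 3′ end of the last exon (chr12:54678664-54679030) and the others lie further 5′ in the gene. HNRNPA1 values are therefore read as those of these parts of the transcript, and a change in the level of the mRNA cannot be told apart from a change in the use of those parts.

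On these counts HNRNPA1 in WT stood at 67.3, 65.4 and 62.8 CPM in input, 108, 97.1 and 91.0 in IP and 228 and 223 in IgG. In siTDP43 it stood at 83.0, 87.1 and 92.3 CPM in input, 252, 281 and 260 in IP and 216, 173 and 246 in IgG. WT IgG was above WT IP in every library, while in siTDP43 all IP libraries lay above all IgG libraries. In input HNRNPA1 rose with siTDP43 by log2 0.43 (SE 0.053, edgeR adjusted p = 1.10e-08). WT IP differed from WT input by 0.61 (SE 0.063, edgeR adjusted p = 4.47e-09), under 2-fold, and fell below WT IgG by 1.21 (SE 0.07, edgeR adjusted p = 1.54e-13) on the log2 scale. siTDP43 IP was above siTDP43 input by 1.75 (SE 0.092, edgeR adjusted p = 1.09e-13) and differed from siTDP43 IgG by 0.25 (SE 0.10, edgeR adjusted p = 0.0266), under 2-fold. The latter value became 0.13 (edgeR adjusted p = 0.218) without siTDP43 IgG replicate 2, 0.20 (edgeR adjusted p = 0.120) without siTDP43 IP replicate 2 and 0.25 (edgeR adjusted p = 0.0566) without siTDP43 IP replicate 3, and was 0.14 (edgeR adjusted p = 0.151) with the GC trend removed. The genotype difference of IP over input was 0.999 (SE 0.12, edgeR adjusted p = 1.52e-09) and that of IP over IgG was 1.51 (SE 0.13, edgeR adjusted p = 3.99e-13), both higher in siTDP43 and the most positive of the 10 genes.

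HNRNPA2B1 (chr7:26229556-26240413, minus strand) encodes hnRNP A2 and its isoform B1, which act in splicing and in transport of mRNA along cell processes. In WT it stood at 735, 762 and 769 CPM in input, 1675, 1798 and 1742 in IP and 1014 and 988 in IgG. In siTDP43 the levels were 861, 908 and 950 CPM in input, 979, 996 and 987 in IP and 729, 695 and 762 in IgG. The WT IP libraries stood above all 14 others, and in siTDP43 the 3 groups lay close together without overlap. Input was higher in siTDP43 by log2 0.27 (SE 0.038, edgeR adjusted p = 1.85e-07), but the value fell to 0.011 (edgeR adjusted p = 0.770) once the trend of fold change with GC content was removed. WT IP was above input by 1.21 (SE 0.045, edgeR adjusted p = 1.09e-17), whereas siTDP43 IP differed from its input by 0.28 (SE 0.057, edgeR adjusted p = 1.20e-04), under 2-fold. Over IgG the log2 value was 0.78 (SE 0.051, edgeR adjusted p = 1.91e-12) in WT and 0.37 (SE 0.059, edgeR adjusted p = 9.43e-06) in siTDP43, neither past 2-fold. With the GC trend removed the WT value over IgG became 1.31 and passed. Between genotypes, IP over input differed by -1.08 (SE 0.073, edgeR adjusted p = 1.19e-15) and IP over IgG by -0.36 (SE 0.079, edgeR adjusted p = 1.52e-04).

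HNRNPD (chr4:83274467-83295149, minus strand), also called AUF1, binds AU-rich elements and acts in mRNA decay. Its level in WT was 57.8, 59.8 and 60.8 CPM in input, 627, 676 and 658 in IP and 276 and 297 in IgG. In siTDP43 it was 35.2, 36.7 and 39.2 CPM in input, 248, 216 and 230 in IP and 196, 202 and 218 in IgG. IP libraries stood highest in WT, with IgG between IP and input, while in siTDP43 the IP and IgG libraries overlapped. Input fell with siTDP43 by 0.68 (SE 0.061, edgeR adjusted p = 1.54e-11) on the log2 scale. WT IP was 11.0-fold above input, log2 3.46 (SE 0.055, edgeR adjusted p = 1.03e-24), and 2.25-fold above IgG, log2 1.17 (SE 0.058, edgeR adjusted p = 1.12e-14). WT IgG itself was above input by 2.29 (SE 0.058, edgeR adjusted p = 1.69e-20). In siTDP43, IP was above input by 2.80 (SE 0.082, edgeR adjusted p = 2.73e-18), IgG was above input by 2.699 (SE 0.086, edgeR adjusted p = 8.86e-18), and IP over IgG was 0.10 (SE 0.081, edgeR adjusted p = 0.271). The genotype difference was -0.81 (SE 0.094, edgeR adjusted p = 1.46e-09) for IP over input and -1.02 (SE 0.10, edgeR adjusted p = 4.56e-11) for IP over IgG.

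HNRNPC (chr14:21677296-21737638, minus strand) forms tetramers that package nascent RNA and bind runs of uridine. It stood in WT at 1859, 2060 and 2034 CPM in input, 489, 557 and 527 in IP and 1124 and 1198 in IgG. In siTDP43 it stood at 3465, 3506 and 3566 CPM in input, 1870, 1641 and 1602 in IP and 1405, 1452 and 1377 in IgG. Input was the highest group in both genotypes, IP the lowest in WT, and IgG the lowest in siTDP43. Input rose with siTDP43 by log2 0.83 (SE 0.036, edgeR adjusted p = 3.16e-19). WT IP was below both controls, at log2 -1.91 (SE 0.054, edgeR adjusted p = 6.34e-20) over input and -1.17 (SE 0.059, edgeR adjusted p = 1.31e-14) over IgG, and the latter dropped under 2-fold, to -0.72, with the GC trend removed. siTDP43 IP over input was -0.89 (SE 0.053, edgeR adjusted p = 1.10e-12) and siTDP43 IP over IgG was 0.20 (SE 0.054, edgeR adjusted p = 0.00235), neither past 2-fold, although the value over input passed with total count scaling (-1.23) and with all 17 libraries in 1 fit (-1.04). The genotype difference of IP over input was 0.88 (SE 0.08, edgeR adjusted p = 3.91e-12) and that of IP over IgG was 1.42 (SE 0.085, edgeR adjusted p = 4.35e-17), both higher in siTDP43.

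HNRNPF (chr10:43881065-43904696, minus strand) and HNRNPH1 (chr5:179041179-179050722, minus strand) are paralogues that bind runs of G through quasi-RRMs and regulate splicing. HNRNPF in WT stood at 266, 244 and 245 CPM in input, 90.0, 86.3 and 89.8 in IP and 152 and 137 in IgG. HNRNPF in siTDP43 stood at 538, 511 and 505 CPM in input, 202, 199 and 185 in IP and 121, 134 and 131 in IgG. IP was its lowest group in WT and its middle group in siTDP43. HNRNPF rose in input by log2 1.05 (SE 0.041, edgeR adjusted p = 1.81e-20), and IP over input was negative, at -1.50 (SE 0.056, edgeR adjusted p = 1.35e-17) in WT and -1.25 (SE 0.065, edgeR adjusted p = 8.44e-14) in siTDP43. The genotype difference of these IP over input values, 0.10 (SE 0.09, edgeR adjusted p = 0.348), was not called. With total counts it was called lower, at -0.20 (edgeR adjusted p = 0.0437). With the GC trend removed it was called higher, at 0.24 (edgeR adjusted p = 0.0129). Over IgG the value was -0.73 (SE 0.065, edgeR adjusted p = 4.46e-10) in WT and 0.53 (SE 0.074, edgeR adjusted p = 1.63e-06) in siTDP43, both under 2-fold. Their difference was log2 1.31 (SE 0.10, edgeR adjusted p = 1.13e-13), higher in siTDP43.

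HNRNPH1 in WT stood at 190, 187 and 184 CPM in input, 204, 215 and 224 in IP and 142 and 137 in IgG. In siTDP43 the same mRNA stood at 474, 482 and 503 CPM in input, 422, 377 and 405 in IP and 266, 273 and 260 in IgG. Every siTDP43 library lay above every WT library. Input rose by log2 1.38 (SE 0.039, edgeR adjusted p = 3.82e-24), or 2.61-fold. IgG lay below input, at log2 -0.39 in WT and -0.64 in siTDP43, both under 2-fold. With total counts the siTDP43 value passed, at -1.19. The IP values lay nearer to input. IP over input was 0.20 (SE 0.051, edgeR adjusted p = 7.52e-04) in WT and -0.12 (SE 0.062, edgeR adjusted p = 0.0793) in siTDP43, the latter with its sign turned to 0.16 once the GC trend was removed. IP over IgG was 0.60 (SE 0.061, edgeR adjusted p = 4.32e-09) in WT and 0.52 (SE 0.067, edgeR adjusted p = 4.99e-07) in siTDP43, both under 2-fold. Between genotypes, IP over input differed by -0.47 (SE 0.084, edgeR adjusted p = 6.71e-06). For IP over IgG the difference was -0.025 (SE 0.095, edgeR adjusted p = 0.974), but it passed with DESeq2 (-0.25) and with the GC trend removed (-0.48), and was 0.0025 with total counts.

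HNRNPL (chr19:39327028-39342979, minus strand) binds CA repeats and regulates splicing. It stood in WT at 49.9, 48.9 and 46.6 CPM in input, 242, 269 and 272 in IP and 218 and 218 in IgG. In siTDP43 it stood at 35.2, 32.6 and 38.8 CPM in input, 142, 118 and 142 in IP and 161, 172 and 154 in IgG. IP was the highest group in WT and IgG the highest in siTDP43. Input fell by 0.44 (SE 0.067, edgeR adjusted p = 6.08e-07) on the log2 scale. IP was above input by 2.44 (SE 0.058, edgeR adjusted p = 2.17e-21) in WT and by 2.07 (SE 0.10, edgeR adjusted p = 1.19e-14) in siTDP43. IgG was above input by 2.20 (SE 0.064, edgeR adjusted p = 1.91e-19) in WT and by 2.42 (SE 0.10, edgeR adjusted p = 1.72e-15) in siTDP43. Over IgG the IP value was 0.24 (SE 0.063, edgeR adjusted p = 0.00131) in WT and -0.34 (SE 0.10, edgeR adjusted p = 0.00367) in siTDP43, both under 2-fold. The genotype difference was -0.51 (SE 0.11, edgeR adjusted p = 1.15e-04) for IP over input and -0.53 (SE 0.12, edgeR adjusted p = 2.30e-04) for IP over IgG. The latter became -0.14 (edgeR adjusted p = 0.334) with the GC trend removed.

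HNRNPM (chr19:8509803-8554002, plus strand) binds GU-rich RNA and regulates alternative splicing. In WT it stood at 116, 118 and 122 CPM in input, 667, 728 and 774 in IP and 643 and 792 in IgG. In siTDP43 it stood at 330, 314 and 299 CPM in input, 428, 377 and 370 in IP and 389, 407 and 356 in IgG. The libraries of IP and IgG overlapped in both genotypes, and the 2 WT IgG libraries differed from each other more than those of any other member in that group. Input rose with siTDP43 by log2 1.41 (SE 0.044, edgeR adjusted p = 4.91e-23), or 2.66-fold, the largest rise of the 10. WT IP was 6.12-fold above input, log2 2.61 (SE 0.067, edgeR adjusted p = 9.10e-21), and WT IgG was 6.16-fold above it, log2 2.62 (SE 0.072, edgeR adjusted p = 6.91e-20). In siTDP43 both were under 2-fold, 0.47 (SE 0.068, edgeR adjusted p = 1.73e-06) for IP and 0.52 (SE 0.071, edgeR adjusted p = 7.74e-07) for IgG. Over IgG the IP value was -0.0084 (SE 0.071, edgeR adjusted p = 0.926) in WT and -0.044 (SE 0.072, edgeR adjusted p = 0.589) in siTDP43. The genotype difference of IP over input was -2.29 (SE 0.10, edgeR adjusted p = 2.60e-21), while that of IP over IgG was 0.019 (SE 0.11, edgeR adjusted p = 0.9999). The sign of each of these 3 values over IgG turned in some settings. The difference over IgG was -0.21 with DESeq2 and passed, at 0.37 (edgeR adjusted p = 0.0016), with the GC trend removed.

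HNRNPK (chr9:86582998-86595569, minus strand) binds C-rich RNA and DNA through KH domains, as do the PCBP proteins. In WT it stood at 1090, 1141 and 1154 CPM in input, 324, 348 and 328 in IP and 278 and 285 in IgG. In siTDP43 it stood at 2319, 2402 and 2450 CPM in input, 681, 658 and 624 in IP and 522, 490 and 463 in IgG. Every siTDP43 library was above every WT library of the same fraction, and in each genotype the order was input, IP, IgG without overlap. Input rose by log2 1.09 (SE 0.035, edgeR adjusted p = 1.21e-22). IP was below input in both genotypes, at -1.75 (SE 0.048, edgeR adjusted p = 3.10e-20) in WT and -1.71 (SE 0.057, edgeR adjusted p = 2.84e-17) in siTDP43. Their genotype difference, -0.11 (SE 0.076, edgeR adjusted p = 0.203), was not called in edgeR with TMM. It was called lower by DESeq2 and with its size factors (-0.17 each), with total counts (-0.40) and with the GC trend removed (-0.30). Over IgG the IP value was 0.22 (SE 0.055, edgeR adjusted p = 7.23e-04) in WT and 0.34 (SE 0.058, edgeR adjusted p = 2.28e-05) in siTDP43, both under 2-fold. The difference of these was 0.17 (SE 0.084, edgeR adjusted p = 0.0767). It was called higher with total counts (0.20), without siTDP43 IP replicate 3 (0.20) or without siTDP43 IgG replicate 1 (0.22). With the GC trend removed it turned to -0.27 and was called lower.

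HNRNPU (chr1:245013602-245027827, minus strand), also called scaffold attachment factor A, binds chromatin through its SAP domain as well as RNA. In WT it stood at 136, 139 and 133 CPM in input, 807, 877 and 880 in IP and 550 and 560 in IgG. In siTDP43 it stood at 73.9, 80.1 and 83.5 CPM in input, 364, 353 and 344 in IP and 310, 312 and 301 in IgG. In both genotypes the order was IP, IgG, input without overlap, and every siTDP43 group lay below its WT counterpart. Input fell by 0.78 (SE 0.049, edgeR adjusted p = 3.34e-15) on the log2 scale. IP was above input by 2.66 (SE 0.05, edgeR adjusted p = 2.74e-23) in WT and by 2.31 (SE 0.07, edgeR adjusted p = 4.64e-18) in siTDP43. IgG was above input by 2.06 (SE 0.053, edgeR adjusted p = 2.69e-20) in WT and by 2.18 (SE 0.072, edgeR adjusted p = 1.82e-17) in siTDP43. Over IgG the IP value was 0.60 (SE 0.054, edgeR adjusted p = 4.59e-10) in WT and 0.13 (SE 0.07, edgeR adjusted p = 0.0999) in siTDP43, both under 2-fold. The genotype difference was -0.49 (SE 0.083, edgeR adjusted p = 2.76e-06) for IP over input and -0.42 (SE 0.09, edgeR adjusted p = 1.03e-04) for IP over IgG.

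Between the inputs, which compare mRNA abundance with and without the siRNA, 7 of the 10 genes rose in siTDP43 (38.6% of 14036 genes tested rose) and 3 fell (40.6% fell). The genes that rose were HNRNPA1, HNRNPA2B1, HNRNPC, HNRNPF, HNRNPH1, HNRNPM and HNRNPK, and those that fell were HNRNPD, HNRNPL and HNRNPU. The median log2 change of the 10 was 0.63, against -0.05 over all genes tested. Of 20 further hnRNP genes, 19 were tested, 8 rose and 9 fell, with a median of -0.16. Of 14 serine- and arginine-rich (SR) splicing factors, which often act against hnRNPs on the same exons, 11 rose and 3 fell, with a median of 1.29. In bulk RNA of this kind a lower level in every cell cannot be told apart from loss in some of the cells. About 79.2% of all genes tested passed the threshold in this comparison, so that a call by itself sets a gene apart from few others. The changes of the 3 lists are plotted beside each other.

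**Figure D2:**
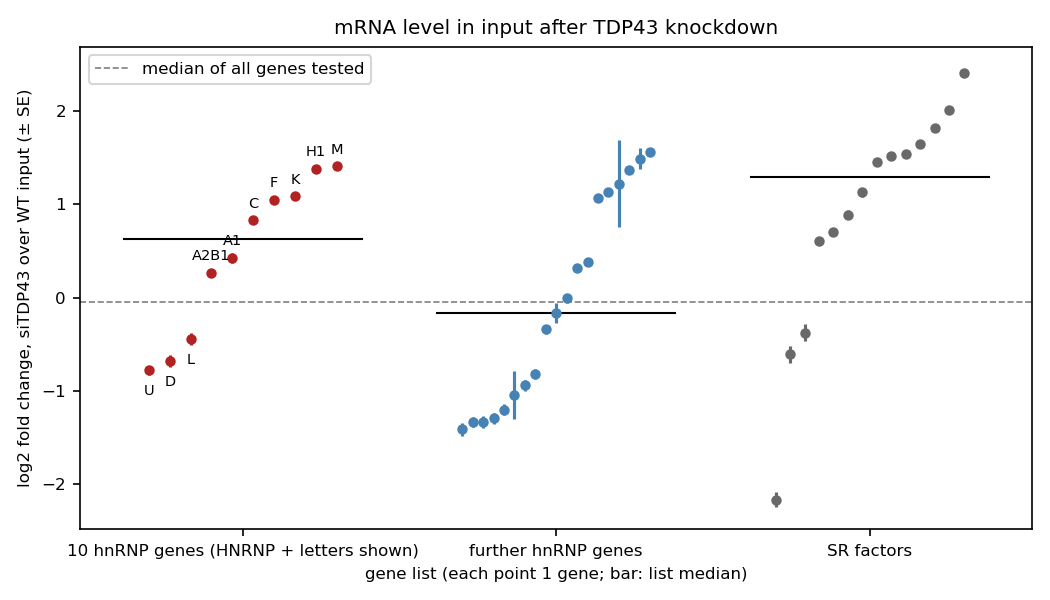
Log2 fold change of siTDP43 input over WT input (points, bars ± SE) for the 10 hnRNP genes, the further hnRNP genes and the SR factors, each ordered by its value. Black lines are list medians (0.63, -0.16 and 1.29) and the dashed line is the median of all genes tested (-0.05). HNRNPM (M) and HNRNPH1 (H1) lie highest among the 10 and HNRNPU (U) lowest.

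The further hnRNP genes with the largest changes in input were SYNCRIP (hnRNP Q), at log2 1.56 (SE 0.046, edgeR adjusted p = 8.55e-24), PTBP2, a neuronal polypyrimidine tract-binding protein, at 1.49 (SE 0.11, edgeR adjusted p = 2.60e-13), and HNRPLL, a paralogue of HNRNPL, at -1.41 (SE 0.07, edgeR adjusted p = 7.58e-18). The paralogues HNRPLL and HNRNPL both fell. TARDBP fell by 0.57, which is smaller in size than the change of 7 of the 10 hnRNP genes.

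Pull-down with the ac4C antibody was set against input within each genotype. In WT, HNRNPD, HNRNPU, HNRNPM, HNRNPL and HNRNPA2B1 were higher in IP than in input, 5 of 10, against 30.2% of 14751 genes tested. HNRNPC, HNRNPK and HNRNPF were lower, 3 of 10, against 27.3%. In siTDP43, HNRNPD, HNRNPU, HNRNPL and HNRNPA1 were higher, 4 of 10 against 26.8% of 12746 genes tested, and HNRNPK and HNRNPF were lower, 2 of 10 against 25.4%. The median of the 10 was 0.91 in WT and 0.38 in siTDP43, beside 0.01 and -0.09 over all genes tested. With total count scaling the median of all genes tested moved by -0.34 in siTDP43 and the split of all calls went from 3414 higher and 3239 lower to 2771 and 4327. That setting brought HNRNPC to 3 lower genes of the 10 and left the 4 higher. HNRNPA2B1 turned to -0.06 under it.

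The control pull-down also differed from input. In WT, IgG was above input for HNRNPM, HNRNPD, HNRNPL, HNRNPU and HNRNPA1, 5 of 10 against 24.4% of genes tested, and below input for HNRNPK, 1 of 10 against 36.6%. In siTDP43, IgG was above input for HNRNPD, HNRNPL, HNRNPU and HNRNPA1, 4 of 10 against 24.7%, and below input for HNRNPK, HNRNPF and HNRNPC, 3 of 10 against 41.0%. The median of all genes tested was itself -0.39 in WT and -0.58 in siTDP43, and total count scaling moved the latter by -0.55, taking the split of all calls from 3145 higher and 5227 lower to 2365 and 6420, and that of the 10 genes to 3 and 4. Relative to the median of all genes tested, which takes the scaling out, HNRNPM in IgG over input was at 3.01 in WT and 1.09 in siTDP43 on the log2 scale, and HNRNPH1 was at -0.0041 and -0.062. The IgG and IP values share the same input libraries, so a low or high input level enters both. In both genotypes the values for IP and for IgG are plotted beside each other.

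**Figure D3:**
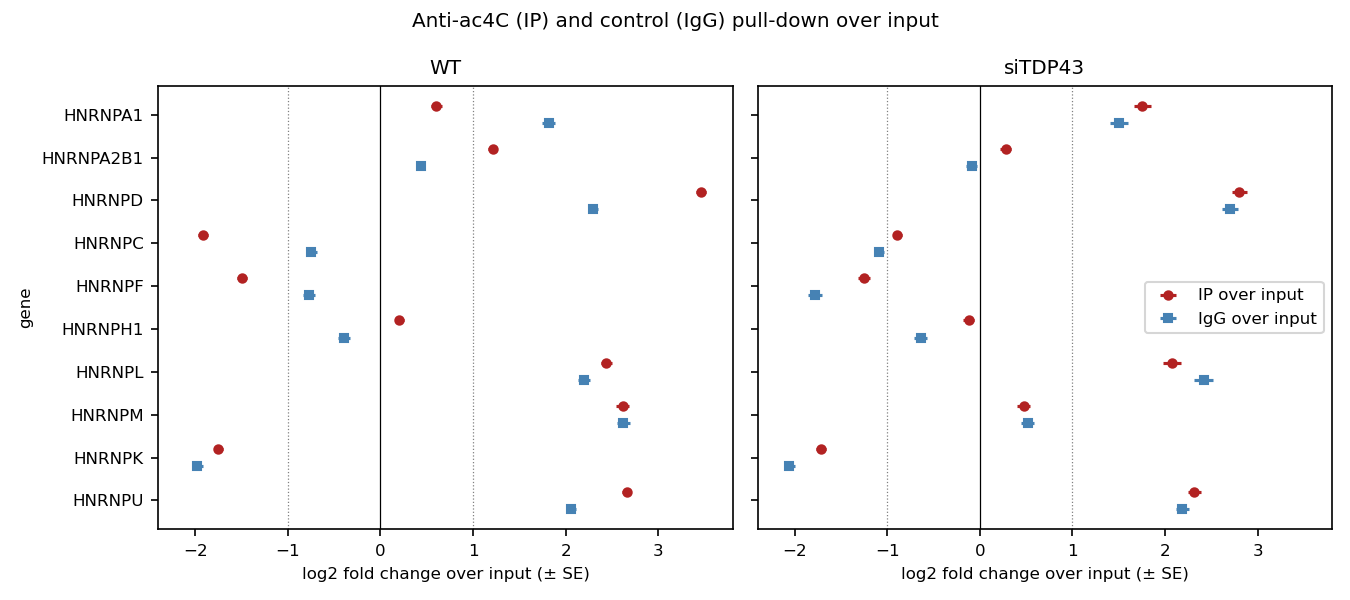
Log2 fold change over input (± SE) of the 10 hnRNP mRNAs in the anti-ac4C pull-down (IP, red circles) and the control pull-down (IgG, blue squares), in WT (left) and siTDP43 (right), with dotted lines at 2-fold. In WT HNRNPM lies at 2.61 for IP and 2.62 for IgG, and in siTDP43 at 0.47 and 0.52.

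Set against IgG, which compares the scaled level of an mRNA between the ac4C and the control pull-down, few of the 10 mRNAs passed. These scaled values do not hold the amount of RNA that either antibody recovered. In WT, HNRNPD was higher, 1 of 10 against 35.2% of genes tested, and HNRNPA1 and HNRNPC were lower, 2 of 10 against 17.8%. In siTDP43, 0 of 10 passed in either direction, against 34.0% higher and 15.0% lower of genes tested, with log2 values from -0.34 for HNRNPL to 0.53 for HNRNPF. DESeq2 also called 0, while 7 of the 10 had an unadjusted p under 0.05 in edgeR, 6 of them above IgG and 1 below. The adjusted p was under 0.05 for 7 of the 10 as well, near the 73.5% of all genes tested. The median of the 10 was 0.23 in WT and 0.22 in siTDP43, beside 0.29 and 0.33 over all genes tested. The study states its limit over IgG for ac4C(+) transcripts differently in different places, in the methods as the stricter of those used here. With ac4C(+) taken as more than 2-fold over both input and IgG, HNRNPD was ac4C(+) in WT, 1 of 10 against 15.6% of genes tested. None of the 10 was ac4C(+) in siTDP43, against 10.3%. With the stricter limit of 5-fold over IgG, HNRNPD was not ac4C(+), so that 0 of 10 were in WT, against 10.5%, and 0 of 10 in siTDP43, against 6.99%. Removing the GC trend brought HNRNPA2B1 to HNRNPD and made 2 of 10. The HNRNPD enrichment over IgG held at 1.12 to 1.23 on the log2 scale when each library was left out in turn. Relative to the median of all genes tested it was 0.88, under 2-fold. On that relative scale HNRNPA1 (-1.51), HNRNPC (-1.46) and HNRNPF (-1.02) in WT lay past 2-fold below IgG.

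**Figure D4:**
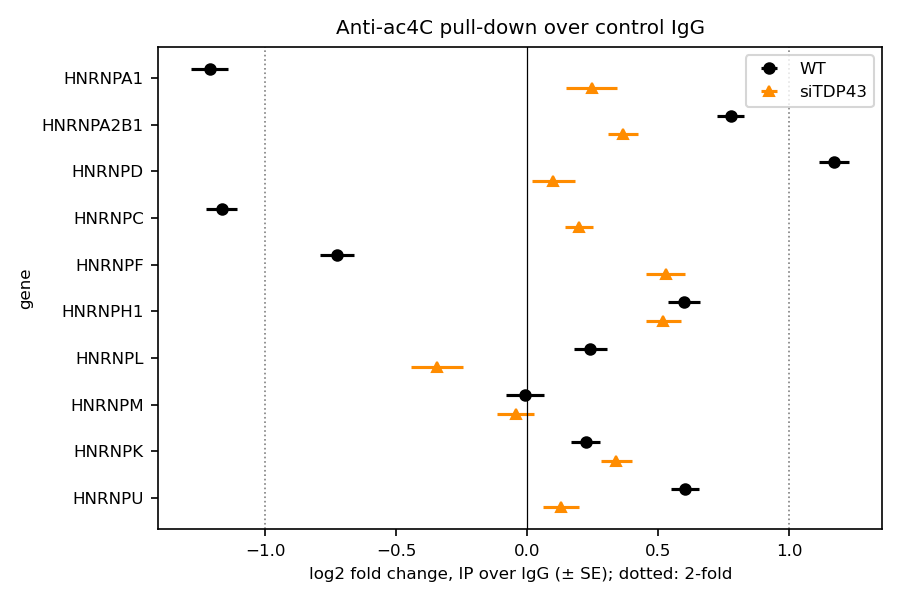
Log2 fold change of IP over IgG (± SE) of the 10 hnRNP mRNAs in WT (black circles) and siTDP43 (orange triangles), with dotted lines at 2-fold. HNRNPD lies past 2-fold above and HNRNPA1 and HNRNPC past 2-fold below in WT, and all 10 lie within 2-fold in siTDP43.

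The genotype difference was tested directly as an interaction over all 17 libraries. For IP over input, HNRNPA1 and HNRNPC were higher in siTDP43, 2 of 10 against 31.5% of 15165 genes tested. HNRNPM, HNRNPA2B1, HNRNPD, HNRNPL, HNRNPU and HNRNPH1 were lower, 6 of 10 against 36.3%. For IP over IgG, HNRNPA1, HNRNPC and HNRNPF were higher, 3 of 10 against 34.9%, and HNRNPD, HNRNPL, HNRNPU and HNRNPA2B1 were lower, 4 of 10 against 25.9%. The medians of the 10 were -0.48 over input and -0.0027 over IgG, beside -0.19 and 0.24 over all genes tested. The 2 differences share the IP libraries. HNRNPD was lower in siTDP43 by both, and HNRNPA1 and HNRNPC were higher by both. HNRNPM stood at -2.29 over input and at 0.02 over IgG. While HNRNPM input rose by 1.41, its mean level in IP was 723 ± 54.0 CPM in WT and 392 ± 31.8 CPM in siTDP43 (SD, n = 3 each). Its mean in IgG was 717 ± 105 CPM in WT (SD, n = 2) and 384 ± 25.8 CPM in siTDP43 (SD, n = 3), and these differences between pull-downs of different genotypes were not tested.

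Among the 20 further hnRNP genes, 19 were tested in WT. Of all genes tested, 30.2% were higher and 27.3% lower in WT IP over input. Over IgG the shares were 35.2% and 17.8%, and for IgG over input 24.4% and 36.6%. In WT IP over input, 8 were higher and 3 lower, led by HNRNPUL2, an HNRNPU-like protein, at 6.07 (SE 0.082, edgeR adjusted p = 6.07e-26), the C-rich binding protein PCBP1 at 2.35 (SE 0.056, edgeR adjusted p = 1.82e-21) and HNRNPA3 at 2.34 (SE 0.052, edgeR adjusted p = 5.40e-22). HNRNPUL2 overlaps a read-through gene, and its input counts were 96 to 124, so this fold rests on few input reads. In WT IP over IgG, 4 were higher and 2 lower, with HNRNPH2 at -2.64 (SE 0.46, edgeR adjusted p = 1.65e-05) and PTBP2 at 2.58 (SE 0.56, edgeR adjusted p = 1.98e-04). HNRNPH2 shares exons with a read-through gene. PTBP2 had 0 and 12 counts in WT IgG, and HNRNPH2 had 14 to 30 in WT IP. In WT IgG over input, 8 were higher and 3 lower, with PTBP2 at -3.67 (SE 0.51, edgeR adjusted p = 5.12e-07), HNRNPUL2 at 3.61 (SE 0.10, edgeR adjusted p = 8.52e-20) and HNRNPH2 at 3.40 (SE 0.47, edgeR adjusted p = 4.94e-07). HNRNPUL2 was ac4C(+) in WT, also with 5-fold over IgG.

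In siTDP43, 18 of the further genes were tested. Of all genes tested there, 26.8% were higher and 25.4% lower in IP over input. Over IgG the siTDP43 shares were 34.0% and 15.0%, and for IgG over input 24.7% and 41.0%. For IP over input 8 were higher and 2 lower, led by HNRNPUL2 at 4.05 (SE 0.25, edgeR adjusted p = 2.59e-12), HNRNPAB at 3.57 (SE 0.075, edgeR adjusted p = 1.02e-20) and PCBP2 at 2.47 (SE 0.071, edgeR adjusted p = 2.02e-18), the last of which overlaps MAP3K12. For IP over IgG 3 were higher and 1 lower, PTBP2 at 3.75 (SE 0.32, edgeR adjusted p = 1.39e-09) on 2 to 6 IgG counts, HNRPLL at 1.63 (SE 0.18, edgeR adjusted p = 6.32e-08), and HNRNPA1L2, whose IgG libraries had 0 to 2 counts and which was at least 2.55-fold higher in IP against a floor of 3 counts per library. For IgG over input 8 were higher and 4 lower, with HNRNPUL2 at 3.89 (SE 0.28, edgeR adjusted p = 2.47e-11), HNRNPAB at 3.66 (SE 0.077, edgeR adjusted p = 4.92e-21) and HNRNPA1L2 at least 9.73-fold lower in IgG by the same floor. HNRPLL was ac4C(+) by the 2-fold limit in siTDP43 and not in WT, and by the 5-fold limit in neither. Between genotypes, IP over input was lower in siTDP43 for SYNCRIP, at log2 -2.24 (SE 0.10, edgeR adjusted p = 1.36e-21), and higher for HNRPLL, at 3.05 (SE 0.18, edgeR adjusted p = 9.98e-18). It was also lower for HNRNPH2, which had 0 to 4 counts in siTDP43 IP. IP over IgG was lower in siTDP43 for HNRNPUL2, at -2.25 (SE 0.22, edgeR adjusted p = 2.57e-11), and higher for HNRNPA1L2, with the IgG counts named above. Of 19 tested, 5 were higher and 11 lower in siTDP43 in the comparison with input, against 31.5% and 36.3% of all genes tested. In that with IgG 6 were higher and 8 lower, against 34.9% and 25.9%.

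The SR factors, 14 of 14 tested, had 1 member above and 1 below input in WT IP, and 3 above and 0 below IgG. In siTDP43 IP, 3 members were above and 3 below input, and 2 were above and 0 below IgG. None was ac4C(+) in WT and SRSF12 was in siTDP43, by the 2-fold limit and not by the 5-fold limit. By the 2-fold limit 15.6% of all genes tested were ac4C(+) in WT and 10.3% in siTDP43. Set against input, 6 had a higher and 7 a lower IP value in siTDP43 than in WT, and set against IgG the counts were 7 and 4. For the other comparisons the shares of all genes tested are those given beside the further hnRNP genes. The SR medians of IP over input, 0.05 in WT and -0.10 in siTDP43, lay near those of all genes tested.

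The profile of each hnRNP mRNA over the 6 group means was compared with the others by Pearson's correlation of log2 CPM, as a description over 6 groups that share their libraries. HNRNPD and HNRNPU were most alike (r = 0.991), and HNRNPL was most like HNRNPU (r = 0.978). HNRNPC was most like HNRNPF (r = 0.942), as was HNRNPK (r = 0.936). The profiles of HNRNPK and HNRNPL ran opposite (r = -0.969), and so did those of HNRNPF and HNRNPD (r = -0.938). HNRNPM was most like HNRNPL (r = 0.798), HNRNPH1 most like HNRNPK (r = 0.676), HNRNPA2B1 most like HNRNPD (r = 0.676) and HNRNPA1 most like HNRNPL (r = 0.608), so these 4 followed no other member closely. Among 10141 genes with a mean of at least 100 counts, the profiles most like that of HNRNPM were those of SLIT2 (r = 0.992), HP1BP3 (r = 0.990) and U2SURP (r = 0.981). Those most like HNRNPA1 were RAMP1 (r = 0.983), UQCRB (r = 0.979) and MRPS17 (r = 0.973). With so many genes and only 6 groups, high values of r are to be found for most profiles.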

How the data were processed

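Poly(A) RNA of HEK293T cells was measured by acRIP-seq in 17 libraries, grouped by genotype and fraction as their labels give them. The authors made Smart-seq2 libraries, trimmed reads with Trim Galore 0.6.7, aligned them to hg19 with STAR 2.7.10a and counted uniquely mapped reads with featureCounts 2.0.2. The deposited table holds whole-number counts for each gene that were not normalized. The sample labels name the mouse build mm10, but the gene positions in the table match hg19 gene models. Smart-seq2 does not mark strand, so reads of antisense genes cannot be told apart where they overlap, and the counting tool by default assigns such reads to neither. Of counts from 1 to 20, 81.3 to 95.9% were even, as when both mates of a pair are counted, and halved counts were run as an alternative. A β-globin probe carrying ac4C was added to the RNA before pull-down, and its reads were not analysed here.

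Counts were tested with edgeR 4.0.16 in R 4.3.3 (TMM, filterByExpr with a minimum count of 10, two-sided quasi-likelihood test, Benjamini-Hochberg adjustment over all genes tested) in 6 input, 8 WT, 9 siTDP43 or all 17 libraries. Calls needed an adjusted p under 0.05, and within a genotype also more than 2-fold. The fits were tested on simulated counts with known changes, for 1 contrast of each fit, with edgeR, with DESeq2 and with the GC trend removed. The other steps were not tested in this way. The libraries of each group differed by more than sampling noise. The alternatives were DESeq2 1.42.0, its size factors, total count scaling, no filter, halved counts, removal of the GC trend, a replicate block, 1 fit of all libraries, 5-fold over IgG, and leaving out each library in turn.

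The 10 genes, the further hnRNP genes and the SR factors were chosen with earlier results of these data known. Named were the 10 genes, TARDBP, in each comparison the 3 further hnRNP genes with the largest change past the threshold, and the genes with the most similar profile. A gene that this rule names among the further hnRNP genes, and 1 exon sequence, are not reported here, and the gene stays in the counts of its list. Level profiles used log2 of the group mean CPM plus 0.5. Motifs were searched in the exon blocks of the table, on the GRCh37 (hg19) genome with GENCODE annotation.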

Additional observations from a re-analysis of the deposited data

Results flagged for a closer look

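A genotype difference in pull-down passed the interaction test for 8 of the 10 hnRNP mRNAs over input and for 7 over IgG, at an edgeR adjusted p under 0.05. Over input the log2 difference of siTDP43 against WT was 0.999 for HNRNPA1 and 0.88 for HNRNPC, and -2.29 for HNRNPM, -1.08 for HNRNPA2B1, -0.81 for HNRNPD, -0.51 for HNRNPL, -0.49 for HNRNPU and -0.47 for HNRNPH1. Over IgG it was 1.51 for HNRNPA1, 1.42 for HNRNPC and 1.31 for HNRNPF, and -1.02 for HNRNPD, -0.53 for HNRNPL, -0.42 for HNRNPU and -0.36 for HNRNPA2B1. Of all genes tested, 67.8% passed over input and 60.8% over IgG.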

How the results depend on the processing

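The 20 counts of members called were recomputed 357 times over the alternatives, and 353 stayed within 1.5 times. In WT IP over IgG, removing the GC trend gave 2 higher (HNRNPD and HNRNPA2B1) and 1 lower, and it made 2 members ac4C(+) in WT, while the 5-fold limit over IgG left 0. Of 1610 single log2 values, 1558 kept their direction and side of the threshold, 31 changed sign, 5 lost and 16 gained a call. The cause of these was not tested. HNRNPM in WT IP over IgG was 0.018 with DESeq2 and with its size factors, 0.12 with total counts and 0.011 in 1 fit of 17 libraries. HNRNPM in siTDP43 IP over IgG was 0.17 with total counts, 0.12 with the GC trend removed and 0.030 in 1 fit. With total counts HNRNPA2B1 in siTDP43 IP over input was -0.057, HNRNPM in siTDP43 IgG over input -0.034, HNRNPF in the change over input -0.20 and HNRNPH1 in the change over IgG 0.0025. With the GC trend removed HNRNPH1 in siTDP43 IP over input was 0.16, HNRNPA2B1 in siTDP43 IgG over input 0.53, HNRNPK in the change over IgG -0.27, and in siTDP43 IP over IgG HNRNPC was -0.055 and HNRNPU -0.074. In the change over IgG, HNRNPM was -0.21 with DESeq2 and its size factors and -0.0033 without a filter, and HNRNPK was -0.054 and -0.055 by the same 2 settings. Leaving out 1 library, HNRNPM ran from -0.15 to 0.15 in WT IP over IgG, from -0.099 to 0.0025 in siTDP43 IP over IgG and from -0.14 to 0.16 in the change over IgG, and HNRNPH1 from -0.062 to 0.021 in the change over IgG. No called value lost its call in this way. Without WT IgG replicate 2, HNRNPM in WT IP over IgG was 0.15 (edgeR adjusted p = 0.0495), under 2-fold. Total counts moved the median of all genes by 0.10 in WT IP over input, 0.13 in WT IP over IgG, 0.21 in siTDP43 IP over IgG and -0.29 in the change over input, and DESeq2 size factors by -0.21 in the change over IgG.

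Same-numbered libraries showed next to no shared deviation (correlations of -0.021 to 0.026). Whether same-numbered libraries came from the same RNA preparation was not tested. With a replicate block 7 members rose and 3 fell in input, 1 was higher over IgG in WT and 1 was ac4C(+) in WT, and no other count or call of a member changed under the block. The siTDP43 IgG group was the shallowest, at 3013989 to 3436811 counts, and HNRNPA1L2, HNRNPH2 and HNRNPCL1 were at or under 3 counts there.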
